A study of Mus musculus with 54 samples.

Results

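Brain RNA of mice that carry the APPSWE transgene was compared with brain RNA of their control littermates, with every mouse of both groups treated with Cmpd60. The comparison used the 10 brain libraries of Cmpd60-treated mice of this model, 5 of APPSWE mice (numbered s139, as its label has it, 141, 143, 147 and 148) and 5 of control littermates (152, 153, 156, 157 and 158), chosen by genotype and treatment out of 54 libraries in the series. All of the mice were males of BL6 background, about 6 to 7 months old by the series' design text (the growth protocol attached to the same samples describes older mice), singly housed and fasted overnight before they were killed. They had been given 22.5 mg/kg Cmpd60, an inhibitor of the histone deacetylases HDAC1 and HDAC2, by intraperitoneal injection on each of 14 days, in a mixture of DMSO, PEG400 and saline. The APPSWE mice came from Taconic and carry a transgene for the human amyloid precursor protein in its isoform of 695 amino acids with the Swedish mutation, while the control littermates lack the transgene and received the compound as well. A further 10 libraries, 5 of APPSWE mice and 5 of littermates, came from mice injected with the vehicle alone, and they are used below only to set the genotype difference under Cmpd60 beside that under vehicle. The labels do not state that animals were pooled, and p-values measure the spread between libraries.

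The label of 1 of the 10 libraries goes against its use here. The sample label of APPSWE library s139 names the vehicle, whereas the study's own table heads its column with the compound, and the library was used as Cmpd60-treated. Counts of genes and a number of the leading genes are therefore given below with and without it.

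The Swedish mutation lies beside the site at which beta-secretase cuts the precursor protein and is known to raise the release of amyloid beta. HDAC1 and HDAC2 are the catalytic subunits of several corepressor complexes that remove acetyl groups from histones, and their inhibition is known to raise histone acetylation in neurons. Immediate early genes such as Fos, Arc and Nr4a1 are transcribed within minutes of neuronal activity and are widely used as a readout of it. In RNA of brain tissue, a lower level of a cell type's genes can come from fewer cells of that type or from less RNA per cell. These cannot be told apart here.

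Between 25052335 and 55844566 reads per library were counted on genes, and a count of at least 1 was found for between 15084 and 24821 genes. Library 152 of the controls and libraries 141 and s139 of the APPSWE mice had the fewest genes detected, with 15084, 16402 and 18122, and the other 7 libraries had at least 21743. The same 3 libraries lay farthest from the rest, with a median absolute deviation from the median of the 10 libraries of 0.305, 0.202 and 0.140 on the log2 scale over genes of at least 10 CPM, the count of a gene scaled to the size of its library, against at most 0.125 in the other 7. Their low number of detected genes did not follow their depth, which was 32275903, 25418439 and 27120944 counts. As a check of the tissue, the summed level of 17 neuronal markers was between 13062 and 13874 CPM in the APPSWE libraries and between 12892 and 14055 CPM in the control libraries, and none of these markers was at 0 in any library.

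**Figure D1:**
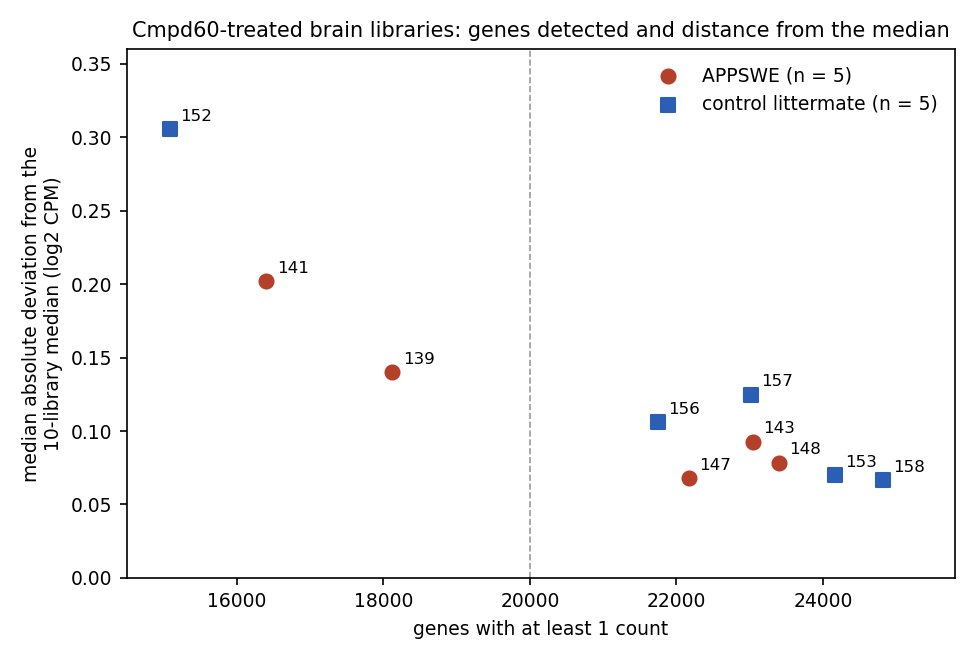
Genes detected, each by 1 count or more (x axis) and median absolute deviation from the 10-library median of log2 CPM over the 10377 genes of at least 10 CPM (y axis) in each Cmpd60-treated brain library, circles for APPSWE mice and squares for control littermates. Libraries 152, 141 and s139 sit to the left of the dashed line at 20000 genes and have the 3 highest deviations.

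The mouse gene App does not separate the groups. App (ENSMUSG00000022892) was counted at 2369, 2044, 2035, 2201 and 2260.4 CPM in the APPSWE libraries s139, 141, 143, 147 and 148, in this order, and at 2091, 1989, 2136, 2211 and 2208 CPM in the control libraries 152, 153, 156, 157 and 158. The groups overlapped (log2 fold change of APPSWE over control 0.04, standard error 0.06, exact permutation p = 0.532). Fold changes and standard errors are from edgeR throughout, and each exact p is from a two-sided permutation test of log2 CPM over the 10 libraries, which cannot go below 0.00794. The test gives that value for any gene whose groups do not overlap. Many genes below were picked by a small p or a wide gap in these same libraries. For them the exact p describes the values and is no independent support. Prnp, the prion protein gene, whose hamster promoter drives the transgene in the line known as Tg2576, was at 644 ± 59.5 CPM (SD, n = 5) in APPSWE and 653 ± 25.4 CPM (SD, n = 5) in control mice. The genotype labels are thus not checked by the counts of either gene, and a count on the human transcript was not analysed here. For the values that follow, libraries are always given in the order used for App.

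Few genes differed between Cmpd60-treated APPSWE mice and littermates by more than the spread between libraries. Of 23273 genes tested, 40 had p below 0.01, or 0.172%, with 12 higher (0.0516%) and 28 lower (0.12%) in APPSWE mice, and 0 had an adjusted p below 0.05 (the adjusted p of every gene was 1) in edgeR's quasi-likelihood test with Benjamini-Hochberg adjustment. At an unadjusted p below 0.05 there were 457 genes, or 1.96%. The shares at p below 0.01 and below 0.05 were both smaller than these thresholds give by chance alone. The number past the adjusted threshold was 1 with DESeq2, a gene with a mean of 0.0115 CPM, 0 with limma-voom and 8 with limma-voom once libraries were weighted by their quality. Among the 10377 genes with a mean of at least 10 CPM, 1.44% had p below 0.05 in edgeR, 69 of them higher (0.665%) and 80 lower (0.771%). For 49 of the 10377 genes, or 0.472%, all 5 libraries of the one group lay beyond all 5 of the other, 26 of them with APPSWE above control. Chance alone gives such a split with a probability of 0.00794 per gene. The share found was below that, so the 49 are no evidence of an excess. The number of such genes ran from 86 to 130 when each of the 10 libraries was left out in turn, where fewer libraries have to line up. In limma-voom the genes of at least 10 CPM with p below 0.05 were split into 103 higher and 51 lower. Without library s139, 99 genes of at least 10 CPM had p below 0.05 and 27 of all genes had p below 0.01 (12 higher and 15 lower), without library 141 the numbers were 97 and 28, and without library 152 they were 66 and 22. Over the removal of each library in turn, the number of all genes with p below 0.01 ran from 22 to 52, the latter without library 156. The median log2 fold change over genes of at least 10 CPM was 0.00314.

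The highest-ranked gene was Pop4 (ENSMUSG00000030423), which encodes a subunit of the RNA-cleaving enzymes RNase P and RNase MRP. Pop4 was at 15.9, 14.9, 21.5, 23.2 and 21.1 CPM in APPSWE and at 9.93, 12.7, 12.0, 7.34 and 6.51 CPM in control mice. Every APPSWE library was above every control library, and the means of 19.3 ± 3.67 and 9.70 ± 2.75 CPM (SD, n = 5 each) correspond to a log2 fold change of 0.99, standard error 0.26, exact permutation p = 0.00794. Without library s139 the value was 1.06, and across the removal of each library in turn it ran from 0.88 to 1.11. Pop4 reached an adjusted p of 0.00406 in limma-voom with quality weights and 0.0374 in edgeR on the 11 libraries with at least 20000 genes detected, a restriction chosen after the data were seen.

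For 3 other higher genes, Shank3, Emc10 and Uevld, the groups did not overlap either. Shank3, which encodes a scaffold of the postsynaptic density, was at 289, 281, 276, 280.5 and 349 CPM in APPSWE and 234, 252, 252, 251 and 245 CPM in control mice. The groups did not overlap, and the difference was small beside the level, with a log2 fold change of 0.26, standard error 0.08, exact permutation p = 0.00794, or 0.27 without library s139. Emc10, which encodes a subunit of the complex that inserts proteins into the membrane of the endoplasmic reticulum, was at 157, 132, 129, 151.1 and 137 CPM in APPSWE and 113, 114, 108, 127 and 115 CPM in control mice. These groups did not overlap (log2 fold change 0.29, standard error 0.10, exact permutation p = 0.00794). Uevld, which encodes a protein with a ubiquitin-conjugating enzyme variant domain, was at 26.3, 15.3, 26.8, 18.1 and 20.1 CPM against 10.6, 14.03, 14.2, 11.7 and 12.3 CPM, again without overlap (log2 fold change 0.76, standard error 0.28, exact permutation p = 0.00794).

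For other higher genes the groups overlapped or 1 or 2 libraries carried the difference. Fam234b was at 228, 221, 229, 277 and 223 CPM in APPSWE and 150.8, 163, 228, 155.3 and 169.6 CPM in control mice, where control library 156 reached the APPSWE values and the other 4 control libraries lay below them (log2 fold change 0.44, standard error 0.12, exact permutation p = 0.0317). Cartpt, which encodes the neuropeptide CART, was at 18.01, 33.3, 11.3, 11.6 and 7.01 CPM against 5.98, 8.34, 6.49, 8.74 and 6.56 CPM. The highest values were in APPSWE libraries 141 and s139, and the log2 fold change of 1.17, standard error 0.36, exact permutation p = 0.0238 became 0.73 without library 141. The remaining genes among the 12 higher ones with the smallest p were Rsrc2, Lin7a, Rpl37a, Xpo1, Peli2 and Fkbp5, with log2 fold changes of 0.32, 0.42, 0.57, 0.30, 0.43 and 0.37. Xpo1 encodes the main exporter of proteins from the nucleus, and Fkbp5 a co-chaperone of the glucocorticoid receptor. Each of these 6 genes lost its p below 0.05 in edgeR when 1 library was left out. Without library 141 the log2 fold changes were 0.17 for Rsrc2, 0.25 for Lin7a, 0.31 for Rpl37a, 0.23 for Xpo1 and 0.32 for Peli2, and that of Fkbp5 was 0.31 without library 153. Rpl37a and Fkbp5 also lost their p below 0.05 without library s139, the one labelled as vehicle, with log2 fold changes of 0.47 and 0.31.

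**Figure D2:**
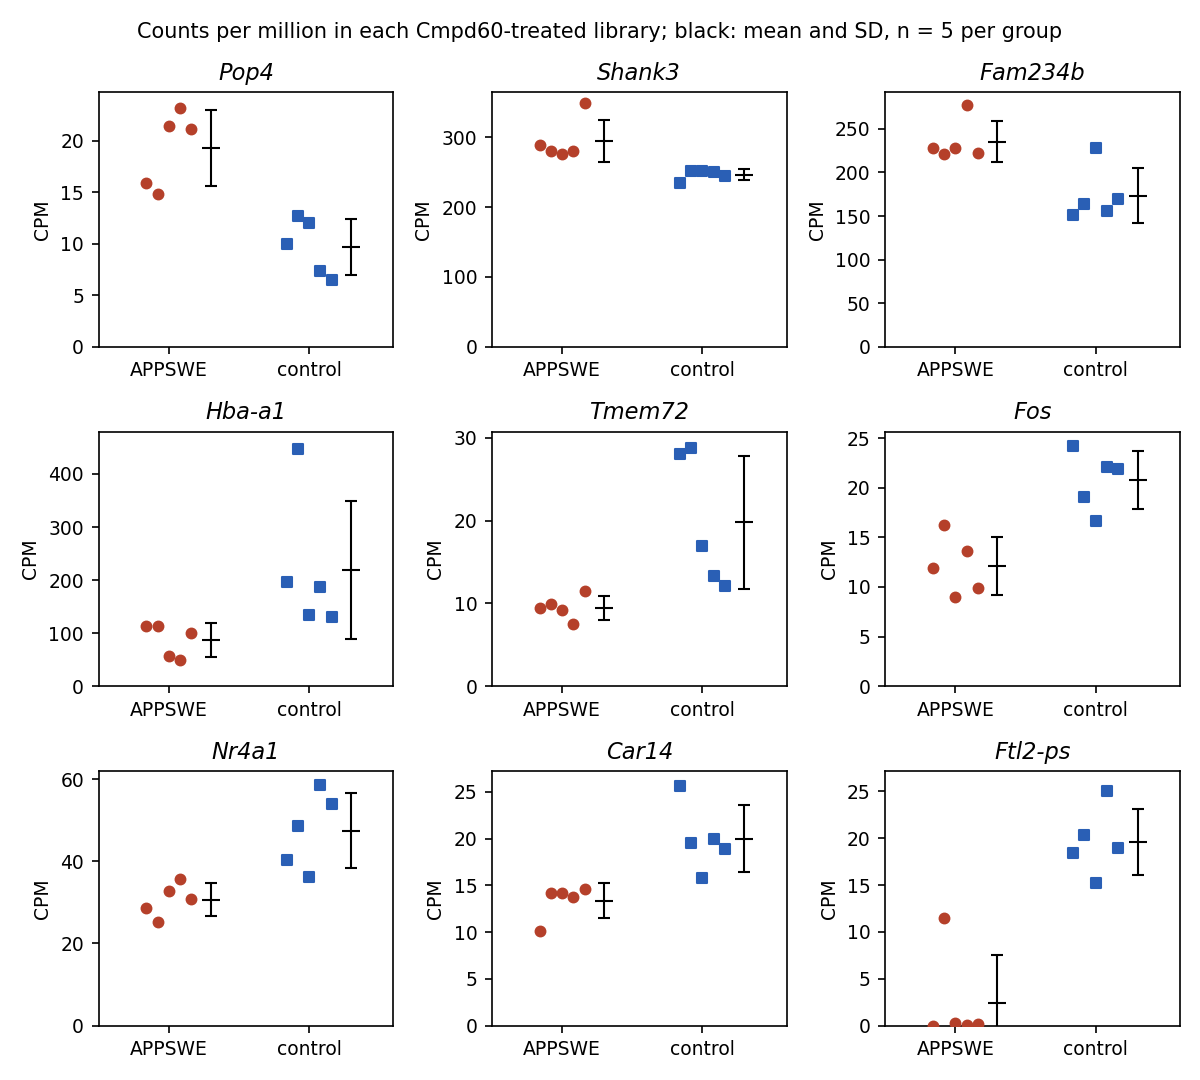
CPM (y axis, from 0) of 9 genes in each Cmpd60-treated library, circles for the 5 APPSWE mice and squares for the 5 control littermates, with the mean and SD of each group in black. Pop4 and Shank3 lie above all controls in the APPSWE mice, and Hba-a1, Tmem72, Fos, Nr4a1, Car14 and Ftl2-ps lie below all controls, while Fam234b overlaps through 1 control library.

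Fos and Nr4a1, both immediate early genes, were below every control library in all APPSWE libraries, and most other genes of this list had log2 fold changes below 0. The 250 bases before the start of these genes are shown here, because both hold the core of the cAMP response element, to which the activity-dependent factor CREB binds. Bases are from RefSeq on build GRCm38.p6, on the plus strand, at chr12:85473640-85473889 for Fos and chr15:101266596-101266845 for Nr4a1, with each match to TGACG or to its reverse complement CGTCA in capitals.
Fos: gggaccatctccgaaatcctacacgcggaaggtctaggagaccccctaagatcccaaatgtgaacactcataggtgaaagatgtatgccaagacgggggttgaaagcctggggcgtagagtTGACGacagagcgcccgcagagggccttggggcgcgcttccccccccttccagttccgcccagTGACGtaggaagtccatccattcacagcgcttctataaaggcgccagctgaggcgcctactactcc
Nr4a1: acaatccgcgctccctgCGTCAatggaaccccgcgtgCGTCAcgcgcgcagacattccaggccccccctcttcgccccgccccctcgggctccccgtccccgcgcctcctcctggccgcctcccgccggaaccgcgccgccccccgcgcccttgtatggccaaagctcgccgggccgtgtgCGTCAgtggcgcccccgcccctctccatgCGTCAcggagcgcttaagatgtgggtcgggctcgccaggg
Fos holds 2 matches, which begin 129 and 66 bases before the start, and Nr4a1 holds 4, which begin 233, 213, 69 and 40 bases before it. Among all 32851 promoter windows of this length, 17.8% hold at least 1 match on either strand, 3.90% hold at least 2 and 0.137% hold at least 4. A match describes the sequence and does not show that a factor was bound. Matches were not counted separately for the other immediate early genes. Whether matches go with a lower level was not tested.

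Fos, which encodes a subunit of the transcription factor AP-1, was at 11.9, 16.3, 8.97, 13.6 and 9.87 CPM in APPSWE and 24.2, 19.0, 16.7, 22.1 and 21.9 CPM in control mice. The highest APPSWE library, 141, lay just under the lowest control library, 156, and the log2 fold change was -0.78, standard error 0.27, exact permutation p = 0.00794. Nr4a1, which encodes an orphan nuclear receptor, was at 28.5, 25.3, 32.9, 35.8 and 30.8 CPM against 40.3, 48.6, 36.3, 58.5 and 53.9 CPM. All 5 APPSWE libraries were again below all 5 control libraries (log2 fold change -0.63, standard error 0.24). Without library s139 the values were -0.77 for Fos and -0.61 for Nr4a1, and both genes kept p below 0.05 in edgeR whichever of the 10 libraries was left out.

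Of the 16 immediate early genes with at least 10 CPM, 12 were lower and 4 higher, and the 2 with p below 0.05 were both lower, where 0.771% of all genes of this level were lower at that p. The median log2 fold change of the 16 was -0.19, or -0.13 without library s139, against 0.00314 over all such genes. Arc, whose product acts at the synapse, was at 73.0, 78.2, 49.8, 96.2 and 59.4 CPM in APPSWE and 76.6, 89.2, 84.0, 122 and 86.9 CPM in control mice, with overlapping groups (log2 fold change -0.36, standard error 0.19). Dusp1, a phosphatase of MAP kinases, had a difference of -0.35, standard error 0.21, and Nr4a3 and Junb had values of -0.34 and -0.29. Egr1, Egr3, Jun and Homer1 were between -0.07 and 0.12. Members of this list respond to shared signals within a mouse and are not independent measurements.

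Several blood-cell and choroid plexus genes were also lower in APPSWE mice. Hba-a1, an alpha globin gene, was at 114, 113, 56.7, 48.8 and 100.1 CPM in APPSWE and 197, 446, 135, 187 and 129.8 CPM in control mice. The groups did not overlap, control library 153 was the highest, and the log2 fold change was -1.34, standard error 0.41, exact permutation p = 0.00794 and -0.90 without library 153. Alas2, which encodes the first enzyme of heme synthesis in red cell precursors, was at 9.47, 5.93, 4.42, 2.99 and 4.66 CPM against 19.1, 27.7, 9.96, 16.1 and 8.81 CPM (log2 fold change -1.57, standard error 0.51, exact permutation p = 0.0159). Only APPSWE library s139 overlapped the control range.

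The 5 blood markers tested summed to between 52.5 and 126 CPM in the APPSWE libraries and to between 139.4 and 475 CPM in the control libraries. Of these, Hba-a1 and Alas2 were lower, and the other 3, Hba-a2, S100a8 and S100a9, had means below 1 CPM over the 10 libraries, were at 0 in at least 1 library, and had log2 fold changes above 0 with no p below 0.05 (2.39, standard error 1.66 for Hba-a2, 0.55, standard error 1.52 for S100a8 and 1.38, standard error 1.61 for S100a9). The median over all 5 was 0.55. Hbb-b1, a beta globin gene named after its values were seen, was at 39.2, 219, 51.4, 37.7 and 45.96 CPM in APPSWE and 68.3, 274, 124, 175 and 112 CPM in control mice, so that APPSWE library 141 exceeded every control but library 153 (log2 fold change -0.94, standard error 0.40). The counts of the globin genes cannot be told apart from those of their near-identical copies with certainty. How much blood remained in each brain was not tested.

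Of 12 choroid plexus markers, 6 had at least 10 CPM, all 6 had log2 fold changes below 0, and 3 had p below 0.05, all lower, where 0.771% of all genes of this level were lower at that p. The median of the 6 was -0.39, and it was -0.27 without control library 153. Over all 12 markers tested, 12 had values below 0. The epithelium of the choroid plexus makes the cerebrospinal fluid, and Ttr, which encodes the thyroxine carrier transthyretin, is its most abundant marker. Ttr was at 497, 515, 349, 313 and 297 CPM in APPSWE and 927, 697, 524, 579 and 477 CPM in control mice. Control libraries 152 and 153 were the highest, APPSWE libraries 141 and s139 lay above control library 158, and the log2 fold change was -0.70, standard error 0.26, exact permutation p = 0.0317. Enpp2, which encodes the lysophospholipase autotaxin, was at 580.3, 531, 522, 466 and 518 CPM against 725, 903, 651, 648 and 461 CPM (log2 fold change -0.37, standard error 0.15), and Slc4a5, a bicarbonate transporter, had a difference of -1.06, standard error 0.46.

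Each of these 3 genes lost its p below 0.05 when 1 library was left out, with log2 fold changes of -0.54 for Ttr and -0.47 for Slc4a5 without control library 152 and -0.25 for Enpp2 without control library 153. For Slc4a5 this was also so without APPSWE library 141 or 147. The 12 markers summed to between 867 and 1176 CPM in APPSWE libraries and to between 1035 and 1820 CPM in control libraries, and none was at 0. Libraries 152 and 153 had the highest sums, 1820 and 1778 CPM. The share of choroid plexus in each dissected brain was not tested.

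The lower genes outside these lists included Tmem72, a membrane protein gene, and Car14, which encodes a membrane-bound carbonic anhydrase. Tmem72 was at 9.40, 9.92, 9.21, 7.46 and 11.5 CPM in APPSWE and 28.02, 28.8, 16.9, 13.3 and 12.1 CPM in control mice, without overlap, and control libraries 152 and 153 were again the highest (log2 fold change -1.06, standard error 0.36, exact permutation p = 0.00794). Car14 was at 10.1, 14.1, 14.2, 13.8 and 14.6 CPM against 25.6, 19.5, 15.8, 20.0 and 18.9 CPM, also without overlap (log2 fold change -0.58, standard error 0.21, exact permutation p = 0.00794). Rsrp1, which encodes a protein rich in arginine and serine, was at 137 ± 12.97 CPM in APPSWE and 173 ± 23.4 CPM in control mice (SD, n = 5 each) and did not overlap (log2 fold change -0.34). Rtl8c, derived from a retrotransposon, and Psmd10, which encodes a chaperone of proteasome assembly, had log2 fold changes of -0.31 and -0.66, and for both the groups overlapped. Without library 152, Psmd10 no longer had p below 0.05 (-0.46). Without library s139 the log2 fold changes were 0.25 for Emc10, 0.68 for Uevld, 0.45 for Fam234b and 1.13 for Cartpt among the higher genes, and -1.46 for Hba-a1, -1.86 for Alas2, -1.06 for Tmem72 and -0.49 for Car14 among the lower ones, each with p below 0.05 in edgeR.

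Gh and Pomc were among the lower genes with the smallest p, and both rested on 1 control library. Gh, the growth hormone gene of the pituitary, was at 1.81, 0, 0.0540, 0 and 0.294 CPM in APPSWE and 0, 0, 6.16, 332 and 0.757 CPM in control mice. Pomc, the precursor of several pituitary hormones, was at 1.59, 0, 0.809, 1.63 and 3.74 CPM against 2.28, 1.34, 3.72, 200.3 and 1.01 CPM. Library 157 held nearly all of the counts of both genes, and it also held 46.2 CPM of the prolactin gene Prl, against at most 0.693 CPM in the other 9 libraries. Without library 157 the log2 fold changes were -2.01 for Gh and -0.43 for Pomc. Pituitary tissue in this sample was not tested. The summed level of the list of thalamus, hypothalamus and pituitary genes was 919 CPM in library 157 and between 288 and 456 CPM in the other 9.

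Myelin genes had log2 fold changes below 0 for 14 of 15 members, with a median of -0.15, and 1 had p below 0.05, against 0.771% of all genes of this level that were lower at that p. The median was -0.23 without library 147. The called gene was Cnp, which encodes an enzyme of the myelin sheath, at 341, 297, 290.5, 372 and 278 CPM in APPSWE and 440.1, 338, 308, 403 and 396 CPM in control mice. The groups overlapped (log2 fold change -0.26, standard error 0.10, exact permutation p = 0.0794). Mog, which encodes a protein of the myelin membrane, had a log2 fold change of -0.20, and Ugt8a, which makes the galactolipids of myelin, one of -0.30. The list summed to between 6229 and 8050 CPM in APPSWE and between 6954 and 8649 CPM in control libraries.

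Genes of striatal medium spiny neurons had values above 0 for 10 of 10 members. Their median was 0.17 on the log2 scale, and 0 had p below 0.05 in edgeR. Ppp1r1b, which encodes the phosphoprotein DARPP-32, was at 343, 261, 326, 312 and 290.2 CPM in APPSWE and 227, 259, 227, 406 and 242 CPM in control mice. Control library 157 was the highest of all 10 and the other 4 control libraries lay below every APPSWE library (log2 fold change 0.17, standard error 0.15). Without library 157 its log2 fold change was 0.35, with p below 0.05, and the median of the list was 0.29. Penk, the precursor of enkephalins, and Adora2a, an adenosine receptor, had log2 fold changes of 0.23 and 0.38. The list summed to 1414 CPM in library 157 and to between 943 and 1066 CPM in the other 4 control libraries, against 1076 to 1348 CPM in the APPSWE libraries. How much striatum each sample held was not tested.

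Genes of amyloid precursor processing and tau, which bear most directly on the model, gave 0 of 22 members with p below 0.05, and the median over the 22 was -0.01. The values farthest from 0 were those of Aph1b, a subunit of gamma-secretase (0.48, standard error 0.31), and Psen2, a catalytic subunit of the same enzyme (-0.38, standard error 0.34). Aph1b was at 0.24 without library 152 and at 0.79, with p below 0.05, without library 158. Ncstn, another subunit, had a log2 fold change of 0.17, the alpha-secretase Adam10 one of 0.13 and the extracellular chaperone Clu one of -0.15. Disease-associated microglial genes, which are known to rise around amyloid plaques, also gave 0 of 13 with p below 0.05, with a median of -0.04. Cd9, Spp1, Ctsl and Axl had log2 fold changes of -0.26, -0.33, -0.12 and -0.10, and Cst7, Itgax, Clec7a and Gpnmb, which define this state, were each at 0 in at least 1 library. Homeostatic microglial genes had a median of 0.06 over 12 members, 0 of them with p below 0.05. Reactive astrocyte genes had values below 0 for all 6 members of at least 10 CPM, with a median of -0.23 and no p below 0.05, among them Gfap (-0.14), Serpina3n (-0.27) and the complement gene C4b (-0.40). The median was -0.12 without library 141 and -0.13 without library 153. C4b was at -0.11 without library 153 and at -0.64 without library 152, and Gfap was at -0.25, with p below 0.05, without library 152.

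Of 34 genes of glutamate and GABA-A receptors, 26 had values above 0, 2 had p below 0.05, both higher, where 0.665% of all genes of at least 10 CPM were higher at that p, and the median log2 fold change was 0.06. Gria1, an AMPA receptor subunit, was at 541, 468, 587, 519 and 647 CPM in APPSWE and 348, 427, 559.7, 535 and 444 CPM in control mice, with the lowest value in library 152 (log2 fold change 0.26, standard error 0.11, 0.16 without library 152). Gabrg3, a GABA-A receptor subunit, had a difference of 0.69, standard error 0.33 and 0.44 without library 152. Gria1 lost its p below 0.05 in edgeR when any 1 of libraries 143, 148, 152, 153 and 158 was left out. For Gabrg3 this was so for any 1 of libraries s139, 143, 147, 148, 152, 157 and 158. Of 25 genes of synaptic vesicles and scaffolds, Shank3 was higher and Vamp1, a vesicle fusion protein, was lower (log2 fold change -0.17, standard error 0.08), and the median was 0.03. Vamp1 no longer had p below 0.05 when any 1 of libraries s139, 143, 148, 152, 153 and 157 was left out. Of 75 cytosolic ribosomal protein genes, Rpl37a was higher and Rps10 lower (-0.23, standard error 0.10), and of 74 nuclear genes of oxidative phosphorylation 0 had p below 0.05, with medians of -0.01 and 0.01. Rps10 lost its p below 0.05 when any 1 of libraries s139, 143, 147, 148, 152 and 157 was left out.

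The 4 genes that the study names for cognition had log2 fold changes above 0, and 0 had p below 0.05 in edgeR. The study drew them from all 4 groups, for changes that the compound made only in the transgenic mice. That is another contrast than the present one. Pla2g6, a phospholipase, was at 17.1, 18.1, 22.9, 23.3 and 21.6 CPM in APPSWE and 1.26, 20.8, 14.9, 24.3 and 22.2 CPM in control mice, so that its value of 0.30 came from library 152 and was -0.00 without it. Cx3cr1, the fractalkine receptor of microglia, Ncam1, a neural adhesion molecule, and Cyfip1, which regulates actin and translation, had log2 fold changes of 0.16, 0.12 and 0.16, which were 0.04, 0.08 and 0.07 without library 152. Closer to the study's contrast is the genotype difference under Cmpd60 minus that under vehicle. It was 0.90, standard error 0.64 for Pla2g6, 0.42, standard error 0.21 for Cx3cr1, 0.21, standard error 0.11 for Ncam1 and 0.37, standard error 0.19 for Cyfip1. None of these had p below 0.05 in edgeR. Of the 10 genes of at least 10 CPM of the mitochondrial genome, 0 had p below 0.05. The other 16 lists had 167 members of at least 10 CPM, of which 3 had p below 0.05, all higher, and the medians of these lists ran from -0.14 to 0.22. Of all genes of at least 10 CPM, 1.44% had p below 0.05 and 0.665% were higher at that p, so the 3 are no evidence of an excess. The 3 were Chd4, the remodelling enzyme of an HDAC1/2 complex (0.20, standard error 0.09), Wfs1 of the cortical and hippocampal list (0.28, standard error 0.13) and Fkbp5 of the glucocorticoid-responsive list.

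**Figure D3:**
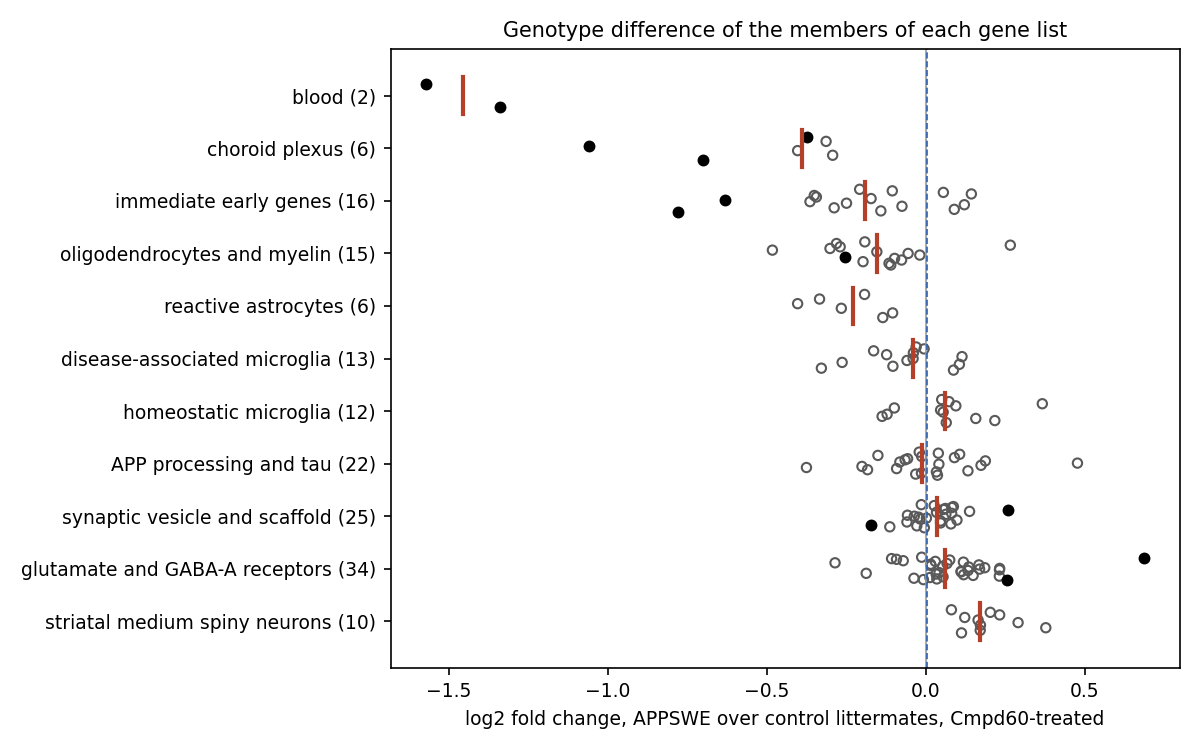
Log2 fold change of APPSWE over control littermates under Cmpd60 (x axis) for the members of at least 10 CPM of 11 gene lists (y axis, number of members in brackets), filled where the unadjusted p was below 0.05. The red bar is the median of each list and the dashed blue line the median of all 10377 genes, and the blood list, of which 2 of 5 tested markers had at least 10 CPM, and the choroid plexus list lie farthest below 0 with medians of -1.45 and -0.39, followed by reactive astrocytes at -0.23 and immediate early genes at -0.19.

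The same genotype contrast in the vehicle-treated mice, which are other animals, gave 540 genes of at least 10 CPM with p below 0.05, or 5.2%. Under Cmpd60 the share was 1.44%. By chance alone, a threshold of 0.05 gives a share close to that under vehicle and above that under Cmpd60. The shares are therefore no evidence of a genotype difference under either, or of a larger one under vehicle. At least 20000 genes were detected in 2 of 5 libraries of each vehicle group, against 3 APPSWE and 4 control libraries under Cmpd60. Why the shares differ was not tested. The difference between both contrasts (the interaction term of the same fit) had p below 0.05 for 285 genes of at least 10 CPM, or 2.75%. That share, too, was below what the threshold gives by chance. The interaction had an adjusted p below 0.05 for 0 genes, 6 in DESeq2 and 0 in limma-voom. The median of the immediate early genes was 0.11 under vehicle against -0.19 under Cmpd60, that of the choroid plexus genes 0.22 against -0.39, and that of the striatal genes -0.20 against 0.17. All 10 striatal genes had values below 0 under vehicle.

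Of the immediate early genes, Arc had the interaction farthest from 0. Most genes given here were named for their values under Cmpd60, which enter the interaction. The log2 fold change of Arc was 0.78, standard error 0.19 under vehicle, and its interaction was -1.14, standard error 0.27, with an unadjusted p below 0.05 in edgeR. The same held for the other interactions of this paragraph except that of Pop4. For Fos the vehicle value was 0.21 and the interaction -0.99, standard error 0.37, for Nr4a1 0.19 and -0.82, standard error 0.34, and for Dusp1 0.44 and -0.79, standard error 0.30. Each of these interactions had an adjusted p above 0.05 over all genes tested. Ttr and Enpp2 had vehicle values of 0.24 and 0.19 with interactions of -0.94, standard error 0.37 and -0.57, standard error 0.21. For Pop4 the vehicle value had the same sign as that under Cmpd60, 0.29, standard error 0.25, and the interaction was 0.70, standard error 0.36. Shank3 had a vehicle value of 0.02 and an interaction of 0.23, standard error 0.11.

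**Figure D4:**
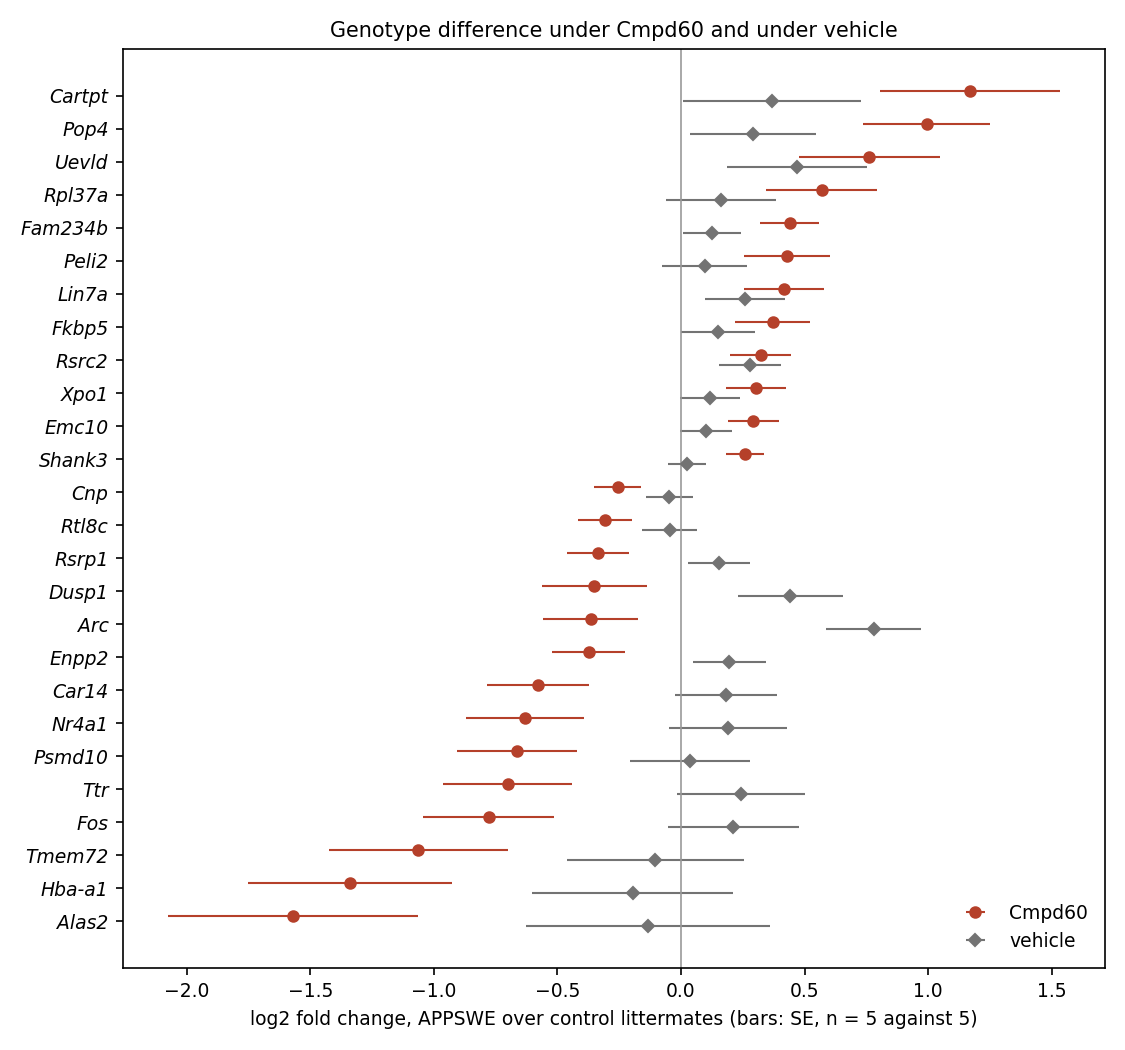
Log2 fold change of APPSWE over control littermates (x axis) with its standard error under Cmpd60 (red circles) and under vehicle (grey diamonds) for 26 genes, each from 5 against 5 libraries. Arc, Dusp1, Fos, Nr4a1, Ttr, Enpp2 and Car14 lie below 0 under Cmpd60 and above 0 under vehicle, and Pop4, Uevld and Cartpt lie above 0 under both.

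A small set of genes had 2 separate levels among the 10 libraries. A gap of at least 2 on the log2 CPM scale, with at least 2 libraries on each side, was found for 20 of the 10377 genes, and for 1 of the 20 the groups did not overlap. This was Ftl2-ps, a pseudogene of the ferritin light chain, at 0, 11.5, 0.252, 0.116 and 0.184 CPM in APPSWE and 18.4, 20.3, 15.2, 25.0 and 19.0 CPM in control mice. Every control library was above every APPSWE library, but the gap itself lay among the APPSWE libraries, with library 141 on the side of the controls (log2 fold change -3.04, standard error 1.15, exact permutation p = 0.00794, -2.71 without library s139 and -6.99 without library 141).

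Ftl1, the functional gene of the ferritin light chain, was named after its values were seen, because reads of such near-identical sequences may be assigned to either. Ftl1 was at 120.5, 84.8, 92.9, 114 and 96.2 CPM in APPSWE and 131, 56.0, 52.0, 64.6 and 59.1 CPM in control mice. Outside library 152, Ftl1 was thus lower in the control libraries, where Ftl2-ps was counted, than in the APPSWE libraries (log2 fold change 0.49, standard error 0.31 in edgeR over all libraries). The split of reads between these genes is uncertain. Under vehicle, the log2 fold change of Ftl2-ps was -0.85, standard error 1.06, and that of Ftl1 was 0.82, standard error 0.32.

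The other 2-level genes divided the libraries in other ways. Ldah, a lipid droplet hydrolase, was at 10.9, 0, 34.9, 0.0388 and 19.1 CPM in APPSWE and 14.1, 35.2, 18.9, 0 and 16.7 CPM in control mice, so that 2 APPSWE libraries and 1 control library were at or near 0. Gm8841 was at 109, 2.15, 2.00, 107 and 109 CPM against 0.339, 188, 82.7, 126 and 97.6 CPM, with the low level in libraries 141, 143 and 152. Atp6v0c-ps2, a pseudogene of a proton pump subunit, Gm17352 and ENSMUSG00000096403 were low in the same 3 libraries. Gm8399 was low in APPSWE libraries 143 and 148, at 0.755 and 1.29 CPM, and between 44.3 and 55.7 CPM in the other 8.

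Rpl29 and Rpl26, which encode ribosomal proteins of the large subunit, were high in all APPSWE mice and low in part of the controls. Rpl29 was at 24.7, 31.1, 16.5, 73.8 and 18.5 CPM in APPSWE and 0, 20.5, 0.438, 21.8 and 20.8 CPM in control mice (log2 fold change 1.37, standard error 0.75, exact permutation p = 0.111), with libraries 152 and 156 at the low level. Without library 147 the log2 fold change was 0.84. In the vehicle-treated mice Rpl29 had groups without overlap, at a difference of 6.26, standard error 0.96 on the log2 scale and an adjusted p of 0.00520 in edgeR. Rpl26 was at 84.8, 83.7, 71.2, 77.2 and 122 CPM against 0.802, 0.625, 137, 80.7 and 3.45 CPM (log2 fold change 0.99, standard error 1.11, exact permutation p = 0.143), with libraries 152, 153 and 158 low. Without library 156 it was 2.04. In both cases the low level was seen in control libraries alone among these 10. ENSMUSG00000096942, ENSMUSG00000110830 and Gm15772 each had 1 low library in either group. Several of these genes are pseudogenes or have near-identical copies, and their counts are uncertain for that reason.

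**Figure D5:**
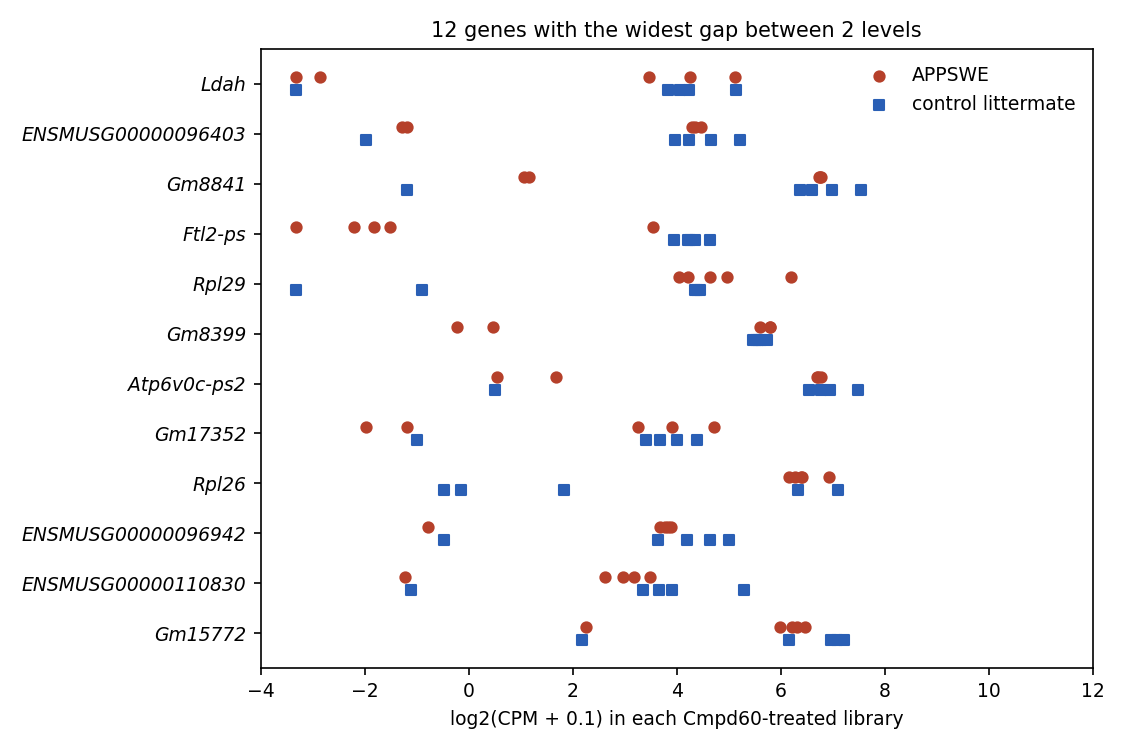
Level of the 12 genes with the widest gap (y axis) in each Cmpd60-treated library, as log2(CPM + 0.1) on the x axis, circles for APPSWE mice and squares for control littermates. For Ftl2-ps the low level holds 4 APPSWE libraries and the high level the fifth with all controls, while Rpl29 and Rpl26 are low in 2 and 3 control libraries and the others are low in libraries of both groups or, for Gm8399, in 2 APPSWE libraries.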

How the data were processed

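Poly(A) RNA of brain, isolated on oligo-dT beads, had been sequenced for the authors on a NovaSeq6000. The paper does not say which part of the brain was taken. Reads had been trimmed with Trimmomatic 0.32, aligned with HISAT2 2.1.0 and counted with HTSeq 0.11.0 with the read direction taken into account. The genome build is not given in the sources used here. The deposited values are raw counts per gene and library, and 5 summary lines per file, between 16.0% and 19.5% of all counts in the 10 libraries, were left out. A gene was tested if 3 or more of the 20 libraries of the APPSWE experiment each held over 2 counts of it, with edgeR 4.0.16 (quasi-likelihood test, TMM, 1 fit over 4 groups, Benjamini-Hochberg adjustment over all 23273 genes) in R 4.3.3. DESeq2 1.42.0 and limma 3.58.1 served as alternatives, beside other filters, scalings and the removal of each library. CPM are TMM-scaled, and log2 CPM used a prior count of 2. A count of 0 allows up to 3 counts, or 0.0539 to 0.120 CPM, for counting error only. The test was checked on simulated data with the same spread for every gene and no deviating libraries. Of 50 genes each at true log2 fold changes of 1, -1, 2 and -2, 49, 49, 50 and 50 had an adjusted p below 0.05, as had 14 unchanged genes. This checks the fit, and does not show what it can find at the spread of these libraries. The members and gene lists were chosen with earlier results of these data known. Genes named were App, Prnp, the 12 higher and 12 lower genes of at least 10 CPM with the smallest p, the 12 genes with the widest gaps, the 4 cognition genes, and up to 4 members with the smallest p of each list described, and any other gene was named for its role or its values. Of the genes this rule gives, 2 are not reported here.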

Additional observations from a re-analysis of the deposited data

Results flagged for a closer look

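In 25 of 176 groups of 5 libraries, 1 library stood apart from the other 4 of its group, where chance gives about 1 in 20 for independent, normally distributed values. Most of these groups are CPM of genes named from the same libraries, 12 of them for a wide gap. The 25 are therefore no evidence of an excess. Among the APPSWE libraries, library 143 had 55844566 counts. Library 147 was highest for Fam234b (277 CPM), Rpl29 (73.8 CPM) and Ugt8a (64.9 CPM), and library 148 for Shank3 (349 CPM) and Rpl26 (122 CPM). Library s139 was highest for Gh (1.81 CPM) and lowest for Car14 (10.1 CPM). Library 141 was highest for Ftl2-ps (11.5 CPM), Ncstn (74.5 CPM) and Atp5c1 (190.3 CPM) and lowest for Rsrp1 (115 CPM). Library 143 was lowest for ENSMUSG00000096942 (0.486 CPM) and Cd9 (30.7 CPM). Among the control libraries, library 157 was highest for Prnp (698 CPM), Pomc (200.3 CPM), Gh (332 CPM), Arc (122 CPM) and Ppp1r1b (406 CPM). Library 156 was highest for Fam234b (228 CPM) and library 153 for Hba-a1 (446 CPM). Library 152 was lowest for Cx3cr1 (26.5 CPM), Cyfip1 (65.6 CPM), Ncstn (31.7 CPM) and C1qc (3.45 CPM).

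The genotype difference under Cmpd60 minus that under vehicle had an unadjusted p below 0.05 in edgeR for 15 of 84 named genes, and for 0 genes after adjustment, while 2.75% of all genes of at least 10 CPM had such a p. Most of the 84 were named for their values under Cmpd60, which are part of this difference, so that the 15 are no evidence of an excess. On the log2 scale it was above 0 for Shank3 (0.23) and Gria1 (0.36). It was below 0 for Fos (-0.99), Nr4a1 (-0.82), Arc (-1.14) and Dusp1 (-0.79) of the immediate early genes, for Ttr (-0.94), Enpp2 (-0.57) and Slc4a5 (-1.69) of the choroid plexus, and for Car14 (-0.76) and Rsrp1 (-0.49). Gh (-7.13) and Pomc (-3.44) had lower values too, with nearly all counts in library 157, as had Rpl29 (-4.89) and ENSMUSG00000110830 (-2.78).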

How the results depend on the processing

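By their total counts alone, all 10 libraries were deep enough for genes of at least 10 CPM. Even so, 10 such genes were at 0 in library 152 and 3 in library 141. The quality weights of libraries 152, 141 and s139 were 0.123, 0.359 and 0.718. Over 84 named genes and 23 alternatives, 1903 of 1932 results kept their direction on the same side of an adjusted p of 0.05. No gene was past that threshold in the main fit, so this count mainly reports the sign and leaves out changes of size. Without library 157, Gh went from -7.36 to -2.01 and Pomc from -4.75 to -0.43, and both are in the 1903. No paired analysis was possible because the groups share no replicate numbers. With library quality weights in limma-voom there were 308 genes at p below 0.01, 99 of at least 10 CPM at that p, 387 at p below 0.05 and 8 at an adjusted p below 0.05, and the median of the thalamus, hypothalamus and pituitary list was -0.35. Among libraries with at least 20000 genes detected, a choice made after the data were seen, the same quantities were 86, 51, 277, 5 and -0.79, with 1 adjusted call of the interaction and 12 genes with 2 levels. With genes detected as a covariate there were 115 genes at p below 0.01 (83 higher and 32 lower, against 12 and 28), 34 and 275 of at least 10 CPM, and 384 interactions at p below 0.01. Without a filter these were 101 genes, 21 of at least 10 CPM, and 489 interactions with 2 adjusted calls. With 10 counts in 5 libraries there were 16 genes and 74 interactions, and with genes of at least 10 CPM alone 15 and 27. The 10 Cmpd60-treated libraries alone gave 22 genes of at least 10 CPM at p below 0.01. DESeq2 gave 1 adjusted call and 6 adjusted interactions, robust estimation 1 adjusted interaction, and limma-voom 128 interactions at p below 0.01. Genes of at least 10 CPM at p below 0.05 were split into 103 higher and 51 lower in limma-voom and 239 and 148 with weights, against 69 and 80. A gap of at least 1 gave 57 genes with 2 levels. With each library left out, genes at p below 0.01 ran from 22 (without 152) to 52 (without 156), those of at least 10 CPM from 8 to 33 and at p below 0.05 from 66 to 216, adjusted interactions from 0 to 1, and the median of the amyloid precursor list from -0.027 to 0.020.

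The direction of the log2 fold change turned for 12 named genes. Avp became -0.25 with library s139 as vehicle and also without it, -0.14 in limma-voom, -0.87 with weights, -0.13 with the covariate and -1.13 in the libraries with at least 20000 genes, and ran to 0.95 without 147. Trh became -0.53 with weights, -0.61 in those libraries and -0.13 without 141, and ran to 0.47 without 143. Prnp became 0.017 with weights and 0.019 without 141, and ran to -0.053 without s139. Ncstn became -0.053 with weights and -0.058 in those libraries, and Csf1r 0.11 and 0.12. Gm17352 became 0.058 without 141, 0.065 without 143 and 0.041 without 153, and ran to -0.96 without s139. Ldah became 0.070 without 153 and 0.041 in the libraries with at least 20000 genes, and ran to -1.18 without 143. In those libraries Rpl37a became -0.018, C1qc -0.053, Grik3 -0.025 and Cox6c -0.092. Pla2g6 became -0.0046 without 152 and ran to 0.47 without 157. The cause was not tested.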

Other observations

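The call at an adjusted p below 0.05 that DESeq2 made was ENSMUSG00000115326, with a mean of 0.0115 CPM over the 10 libraries. Among the libraries with at least 20000 genes detected, the 5 calls in edgeR were Ftl2-ps (adjusted p = 1.04e-08), Gm5148 (1.17e-05), ENSMUSG00000105265 (0.00439), Hbb-b1 (0.0218) and Pop4 (0.0374), and with limma-voom and quality weights Pop4, Ftl2-ps and Hbb-b1 were again among the 8 calls, with adjusted p of 0.00406, 0.00406 and 0.0399.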
